A study of Mus musculus with 9 samples.

Results

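The 9 genes described here encode subunits of Polycomb repressive complex 2 (PRC2): the methyltransferases Ezh1 and Ezh2, the core subunits Eed and Suz12, the Polycomb-like subunits Mtf2, Phf19 and Phf1, and the accessory subunits Jarid2 and Aebp2. They were taken by gene symbol from 35896 genes over which transcript estimates were summed, and all 9 were among the 14648 genes that passed the expression filter and were tested. Their values were measured in the poly-A RNA of 9 cultures. All were of the mouse embryonic stem cell line E14, grown on gelatin in medium with serum. In 3 cultures, the control +LIF2i group, self-renewal was maintained with the cytokine LIF, the MEK inhibitor PD0325901 at 1 µM and the glycogen synthase kinase inhibitor CHIR99021 at 1 µM. In the 3 control -LIF2i cultures these factors had been removed for 72 h. In the 3 CK666 -LIF2i cultures they had been removed for the same 72 h with 80 µM CK666, an inhibitor of the actin-nucleating Arp2/3 complex, added from DMSO at withdrawal and with each daily change of medium. The labels do not say whether the controls received DMSO, so drug and solvent cannot be told apart. All groups came from the same line, so p-values describe the spread between cultures of 1 line.

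PRC2 places methyl groups on lysine 27 of histone H3, a mark of silenced developmental genes. Ezh2 carries the main catalytic activity in dividing cells and Ezh1 is its weaker paralog. Eed binds the finished mark and stimulates the enzyme, and Suz12 is the scaffold on which the accessory subunits assemble. These subunits define alternative forms of the complex: Mtf2, Phf19 or Phf1 in PRC2.1, which binds CpG-rich DNA, and Jarid2 with Aebp2 in PRC2.2. Embryonic stem cells tolerate the loss of PRC2 in self-renewal but differentiate abnormally without it. The design asks how transcripts change on leaving self-renewal, and how Arp2/3 inhibition alters that change.

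The libraries held 16894327 to 22550952 estimated counts. The detection floor of 3 counts equalled 0.133 to 0.178 CPM (counts relative to library size) and every member lay above the floor in every library. The replicate 1 libraries had 15690 to 17605 genes above 0, against 18166 to 18749 in the other replicates. The 6 pluripotency markers were present in all groups, with a summed level of 3402 to 4191 TPM (a level per transcript length, scaled to the library) in self-renewal, 1470 to 1866 after withdrawal and 1661 to 1907 with CK666. Without LIF2i most of this was Pou5f1, at means of 1379 and 1455 TPM, which was not called; the other 5 were lowered by withdrawal, such as Esrrb from 422 to 13.7 TPM and Klf4 from 133 to 2.63 TPM. Summed levels of 5 fibroblast markers were 4.40 to 7.32, 23.9 to 30.0 and 14.5 to 24.4 TPM in the same order. Most of that sum was Thy1, at means of 4.87, 23.0 and 15.6 TPM; no other marker of the list passed 2.56 TPM in a library, and Lum was at 0 in the self-renewal and CK666 libraries. Neural markers summed to 29.5 to 185, 12.9 to 64.8 and 19.2 to 65.2 TPM. Tubb3 of that list had means of 79.7, 24.6 and 21.3 TPM and was below the sum of the other markers of the list in CK666 replicate 3, and Pax6 had means of 0.938, 4.45 and 6.56 TPM. Primitive endoderm markers summed to at most 8.58, 29.7 and 22.7 TPM. Mesoderm markers summed to 4.30 to 10.7, 4.74 to 8.02 and 2.17 to 4.35 TPM, with Mesp1 at 0 in the withdrawn controls. Trophectoderm markers reached at most 1.30, 4.47 and 4.46 TPM. The part of these marker changes in the results below was not tested. In bulk RNA, fewer cells of a type and less RNA per cell cannot be told apart.

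Compared per length over all transcripts of a gene, Ezh2 and Mtf2 had the highest means of the family in each group. Ezh2 was also first on coding transcripts alone, but Mtf2 was not second: at 74.7, 35.9 and 30.7 TPM in self-renewal, after withdrawal and with CK666, it was below Suz12 (96.8, 60.5 and 63.0) and Jarid2 (79.6, 58.9 and 73.4). The order given next is over all transcripts. In self-renewal, mean TPM was 218 ± 16.7 (SD, n = 3) for Ezh2 and 207 ± 90.1 for Mtf2, and their ranges overlapped. Suz12 at 102 ± 15.4, Jarid2 at 90.1 ± 42.6, Eed at 83.7 ± 47.6 and Aebp2 at 52.5 ± 2.88 TPM followed, with each range overlapping the next. Ezh1 lay apart below them at 26.8 ± 6.60 TPM. Phf19 at 5.24 ± 0.813 and Phf1 at 3.81 ± 2.90 TPM were the lowest and overlapped. The order of means was the same with CK666 as after withdrawal, except that Phf19 and Phf1 traded the last places and overlapped in both groups. In the CK666 cultures, where Ezh2 was at 164 ± 11.8 and Mtf2 at 110 ± 1.23 TPM, these ranges no longer overlapped.

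After withdrawal 4 of the 9 members were lowered and none was raised. These were the scaffold Suz12, the methyltransferase Ezh2 and the Polycomb-like subunits Mtf2 and Phf19. Withdrawal changed 40.7% of all tested genes, with 19.7% lowered and 21.1% raised, and 24.0% in all without the block (quasi-likelihood test of edgeR, replicate number as a block, Benjamini-Hochberg adjusted p under 0.05). The median log2 fold change of the 9 members was -0.31, beside 0.0062 over all tested genes. The fitted change was negative in 8 members and positive in 1, whether or not it passed. The groups did not overlap in CPM for 5 members, where 40.7% of all tested genes showed no overlap.

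**Figure D1:**
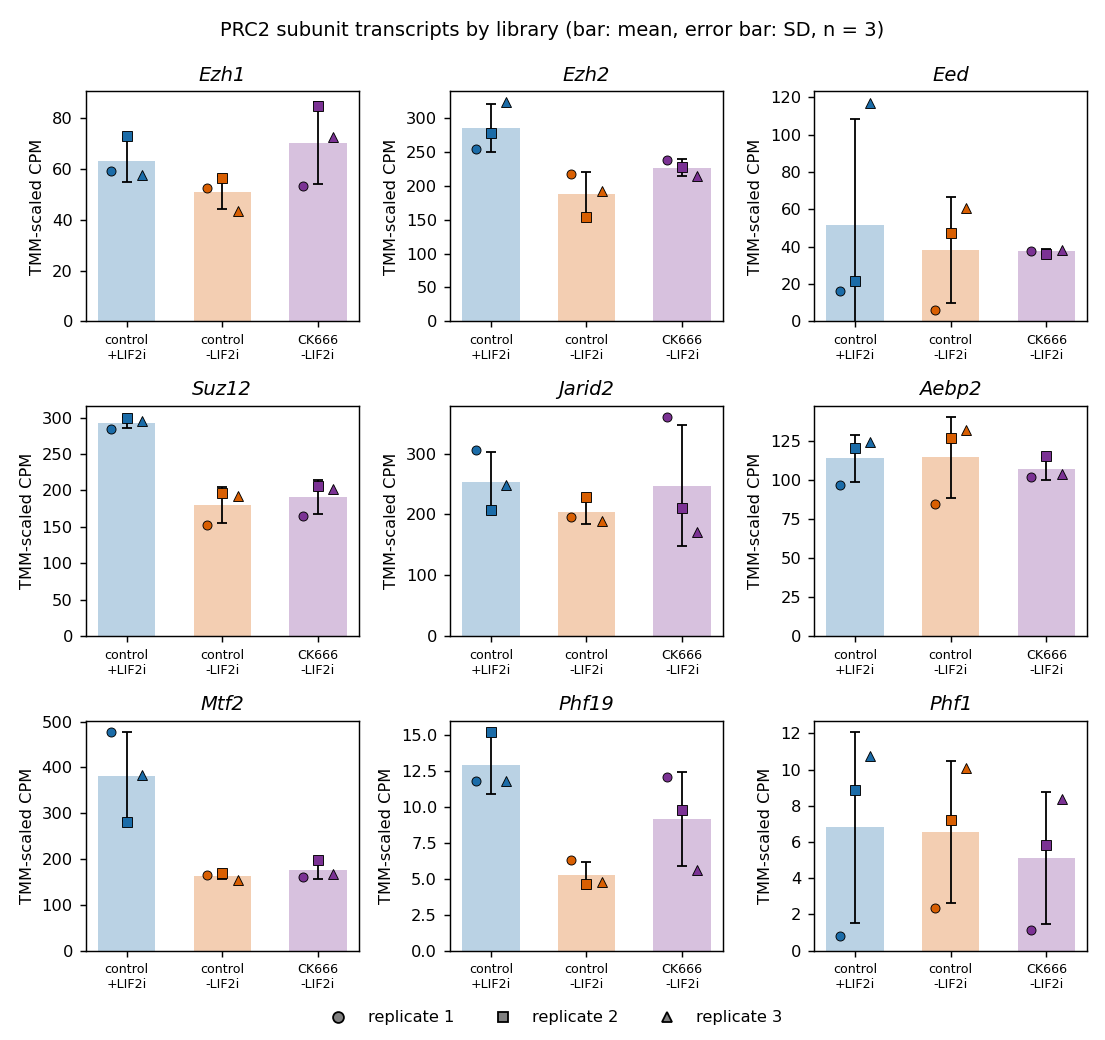
TMM-scaled CPM of each PRC2 subunit in the 9 libraries (points, shaped by replicate number) with the group mean (bar) and SD (error bar, n = 3); each panel has its own axis from 0, and the lower error bar of Eed in self-renewal is cut at 0. Ezh2, Suz12, Mtf2 and Phf19 were higher in all 3 self-renewal libraries than in the 3 control libraries after withdrawal, and Phf1 was lowest in replicate 1 of every group.

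Among the catalytic subunits, Ezh2 fell. Its CPM, in replicate order, was 254, 278 and 323 in self-renewal, and 217, 154 and 192 after withdrawal. All 3 withdrawn libraries lay below all 3 self-renewal libraries, with the closest approach in replicate 1. This was a log2 fold change of -0.61 ± 0.14 (SE; adjusted p = 0.00864, edgeR), a fold of 0.655, with the same direction in 3 of 3 pairs. The call held under 17 of 21 alternative settings and was lost when replicate 2 or replicate 3 was left out (adjusted p = 0.0924 and 0.101). It was also lost without replicate 2 of the withdrawn controls (0.0565) or replicate 3 of the self-renewal controls (0.0556).

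Ezh1 read 59.1, 73.0 and 57.8 CPM in self-renewal, and 52.5, 56.4 and 43.4 after withdrawal. The groups did not overlap, though the gap between 57.8 and 56.4 was small. Its log2 fold change of -0.31 ± 0.15 did not pass (adjusted p = 0.126, edgeR), and passed in 1 of 21 alternatives, without replicate 1 (adjusted p = 0.0315).

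Suz12 fell with little scatter in self-renewal. It measured 285, 300 and 295 CPM with LIF2i, and 152, 196 and 192 without. The highest withdrawn value was well under the lowest self-renewal value. Its log2 fold change was -0.71 ± 0.11 (adjusted p = 0.000879, edgeR), a fold of 0.610, lower in 3 of 3 pairs and called in 21 of 21 alternatives.

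Eed, the other core subunit, could not be placed at the level of the gene. It read 16.1, 21.7 and 117 CPM in self-renewal, and 6.32, 47.5 and 60.8 after withdrawal. Each of these groups held high and low libraries and they overlapped widely. The log2 fold change was -0.30 ± 0.70 (adjusted p = 0.768, edgeR).

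The spread of Eed lay in a single coding transcript, Eed-201 (2067 bases). In replicate order its estimated counts were 6.32, 17.7 and 1518 in self-renewal, 3.56, 780 and 935 after withdrawal, and 708, 477 and 577 with CK666. It was close to 0 in 3 of 9 libraries, spread over both control groups. The shorter coding transcript Eed-205 (767 bases) had 262, 190 and 198 estimated counts in self-renewal, 36.8, 75.1 and 72.9 after withdrawal, and 82.9, 84.1 and 49.5 with CK666. Every self-renewal library was above every withdrawn library for this transcript. With Eed-201 left out of the sum, a setting chosen after its values were seen, the withdrawal change of Eed was -1.39 ± 0.24 (adjusted p = 0.00183, edgeR). Why Eed-201 was near 0 in those libraries was not tested, and whether Eed changed as a gene is not settled by either sum.

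**Figure D2:**
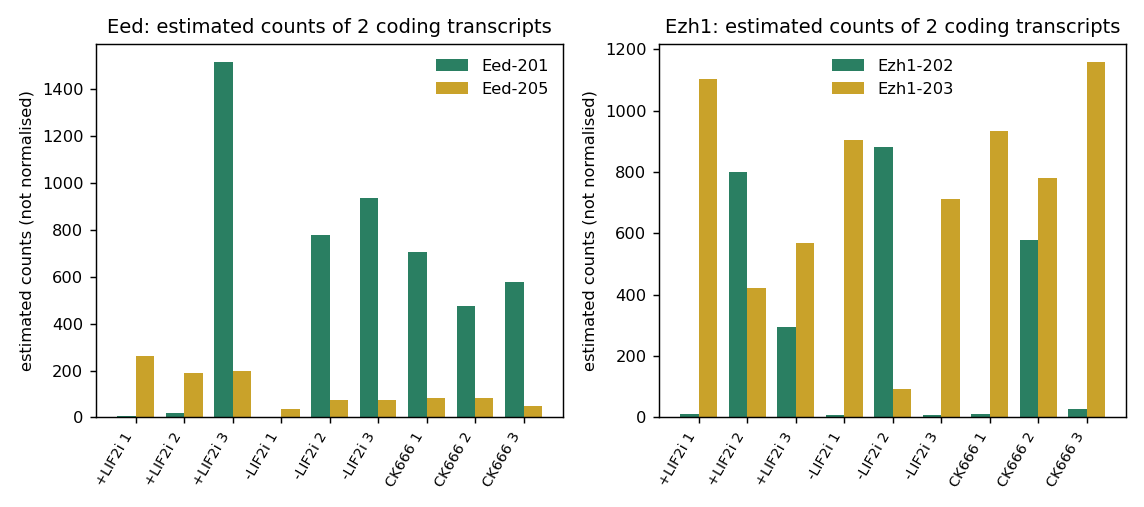
Estimated counts, not normalised, of 2 coding transcripts of Eed (left) and of Ezh1 (right) in each library; bars are single libraries. Eed-201 was close to 0 in replicates 1 and 2 of self-renewal and replicate 1 after withdrawal, and Ezh1-202 in 5 libraries of all groups.

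The Polycomb-like subunits, which bring PRC2.1 to CpG-rich DNA, held the largest changes. Mtf2 was at 477, 281 and 383 CPM in self-renewal and at 165, 170 and 155 after withdrawal. The self-renewal libraries varied more than the withdrawn ones, and the groups were far apart. Its log2 fold change was -1.21 ± 0.18 (adjusted p = 0.000771, edgeR), a fold of 0.432, lower in 3 of 3 pairs and called in 21 of 21 alternatives.

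Phf19 was less abundant and fell as far. Its CPM was 11.8, 15.3 and 11.8 in self-renewal, and 6.32, 4.62 and 4.80 after withdrawal, from 89 to 292 estimated counts a library. The groups did not overlap. The log2 fold change was -1.31 ± 0.27 (adjusted p = 0.00389, edgeR), a fold of 0.403, and the call was lost in 1 of 21 alternatives, without replicate 2 (adjusted p = 0.0550).

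Phf1 behaved differently. It read 0.786, 8.89 and 10.8 CPM in self-renewal, and 2.36, 7.21 and 10.1 after withdrawal. The replicate 1 libraries were low in all groups, CK666 included at 1.14 CPM, so the scatter within a group exceeded any gap between groups. The log2 fold change was 0.27 ± 0.35 (adjusted p = 0.568, edgeR), and its sign turned without replicate 1. Of the exonic bases of Phf1, 39.3% overlap genes on the opposite strand, chiefly Cuta, and the strand setting of the counting is not stated, so its counts are uncertain. The shared part was 6.93% for Mtf2 (with Tmed5), 6.82% for Eed, 3.60% for Suz12 and 2.61% for Ezh2, and 0 for the other 4.

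The PRC2.2 subunits did not pass the test. Jarid2, which helps recruit the complex to chromatin, read 306, 207 and 248 CPM in self-renewal, and 196, 229 and 190 after withdrawal. The groups overlapped through replicate 2, and the log2 fold change was -0.28 ± 0.20 (adjusted p = 0.305, edgeR). Aebp2, a zinc finger subunit, read 96.6, 121 and 125 CPM, and 84.7, 127 and 132. Its log2 fold change of -0.0058 ± 0.13 (adjusted p = 0.977, edgeR) was the smallest in size of the 9, and its sign changed with the scaling.

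The promoters of the 9 members were searched for letters typical of E2F binding, because Ezh2 and other PRC2 genes are known as targets of this cell cycle factor. The letters searched were TTTCCCGC, TTTGGCGC, TTTCGCGC and TTTGCCGC on both strands; the 4 strings share their first and last bases, and neighbouring matches may overlap. The windows were the 250 bases before each RefSeq start (GRCm38.p6), 13 windows for the 9 members. A match lay in 2 of the 13 windows, 1 for Suz12 and 1 for Phf19, and in 1.86% of 32851 such windows genome-wide. A match is a description of letters, not a site, and no match says only that these letters are not in the window. The 2 sequences are shown because they hold a match. Ezh2 and Mtf2, which were also lowered by withdrawal, had no match in their windows. Capitals mark the match, which for Phf19 is the reverse complement of TTTCCCGC. Suz12 is read on the plus strand at chr11:79992856-79993105, and Phf19 on the minus strand at chr2:34914027-34914226.
Suz12: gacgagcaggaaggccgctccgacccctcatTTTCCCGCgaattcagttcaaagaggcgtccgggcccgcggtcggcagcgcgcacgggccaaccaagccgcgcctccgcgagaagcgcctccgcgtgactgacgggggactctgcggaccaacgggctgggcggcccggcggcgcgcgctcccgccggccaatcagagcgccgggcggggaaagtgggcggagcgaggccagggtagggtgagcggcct
Phf19: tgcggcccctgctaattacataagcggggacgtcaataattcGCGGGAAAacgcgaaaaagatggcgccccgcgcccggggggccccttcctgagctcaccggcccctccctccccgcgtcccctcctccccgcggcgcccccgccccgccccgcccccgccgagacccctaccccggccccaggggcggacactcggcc
The full windows held 73.6% G and C with 37 CG pairs for Suz12, and 75.2% with 31 CG pairs for Phf19, beside medians of 52.4% and 6 over all windows. The last 50 bases of the Phf19 window, next to its start, are not printed.

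CK666 during withdrawal changed none of the 9 members by the edgeR test, where 2.05% of all tested genes were called, 1.15% raised and 0.894% lowered. None was called without the block, where 0.0% of all tested genes were. None was called by DESeq2, whose larger count over all tested genes is given at the end. In edgeR with the block 2 members, Ezh1 and Phf19, had an unadjusted p under 0.05, as did 19.7% of all tested genes. The members' median log2 fold change was 0.20, beside 0.017 over all tested genes, with 7 positive and 2 negative values. No member's groups were free of overlap, where 16.5% of all tested genes were.

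Phf19 had the largest value, at 12.1, 9.80 and 5.64 CPM with CK666 against 6.32, 4.62 and 4.80 without. Replicates 1 and 2 with CK666 lay above all withdrawn controls and replicate 3 lay among them. The log2 fold change was 0.77 ± 0.27 (adjusted p = 0.153, edgeR), higher in 3 of 3 pairs. Ezh1 read 53.2, 84.9 and 72.7 CPM with CK666. Here replicates 2 and 3 were above all withdrawn controls and replicate 1 was not. The log2 fold change was 0.45 ± 0.15 (adjusted p = 0.137, edgeR). Without replicate 1 it was 0.65 (adjusted p = 0.00959), the one alternative that called a member in this comparison.

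Ezh2 read 238, 227 and 214 CPM with CK666, and its lowest value fell under the highest withdrawn control. It changed by 0.28 ± 0.14 on the log2 scale (adjusted p = 0.322, edgeR). Suz12 at 165, 206 and 202 CPM and Mtf2 at 161, 197 and 168 CPM overlapped the withdrawn controls. Their log2 fold changes were 0.085 ± 0.11 and 0.11 ± 0.18 (adjusted p = 0.722 and 0.792, edgeR). Jarid2 ranged from 172 to 361 CPM with CK666, the widest spread among the abundant members, with replicate 1 the highest, and changed by 0.20 ± 0.20. Aebp2 (102 to 115 CPM), Eed (36.2 to 38.3 CPM) and Phf1 (1.14 to 8.38 CPM) did not pass either, with log2 fold changes of -0.072 ± 0.13, 0.49 ± 0.73 and -0.54 ± 0.35.

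Against self-renewal, the CK666 cultures had 2 members lowered, Suz12 and Mtf2, and none raised, where 36.9% of all tested genes were called, 17.1% lowered and 19.8% raised, or 20.2% in all without the block. The groups did not overlap for 3 members, as for 37.3% of all tested genes. This comparison shares its libraries with the other 2, so its values are set beside them and not taken as separate support. Suz12 was lower by a log2 fold change of -0.63 ± 0.11 (adjusted p = 0.00201, edgeR) and Mtf2 by -1.10 ± 0.18 (adjusted p = 0.00149), each in 3 of 3 pairs and 21 of 21 alternatives. Ezh2, at -0.33 ± 0.14 (adjusted p = 0.102), and Phf19, at -0.55 ± 0.26 (adjusted p = 0.130), did not pass. Both were called when replicate 1 was left out (adjusted p = 0.0183 and 0.0296), and without replicate 1 of the self-renewal controls alone (0.0130 and 0.0312), and Ezh2 also by limma on TPM (0.0392). Ezh2 and Phf19 were thus called for withdrawal alone and not with CK666; the difference between the cultures with and without CK666 is the test above, which neither passed.

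**Figure D3:**
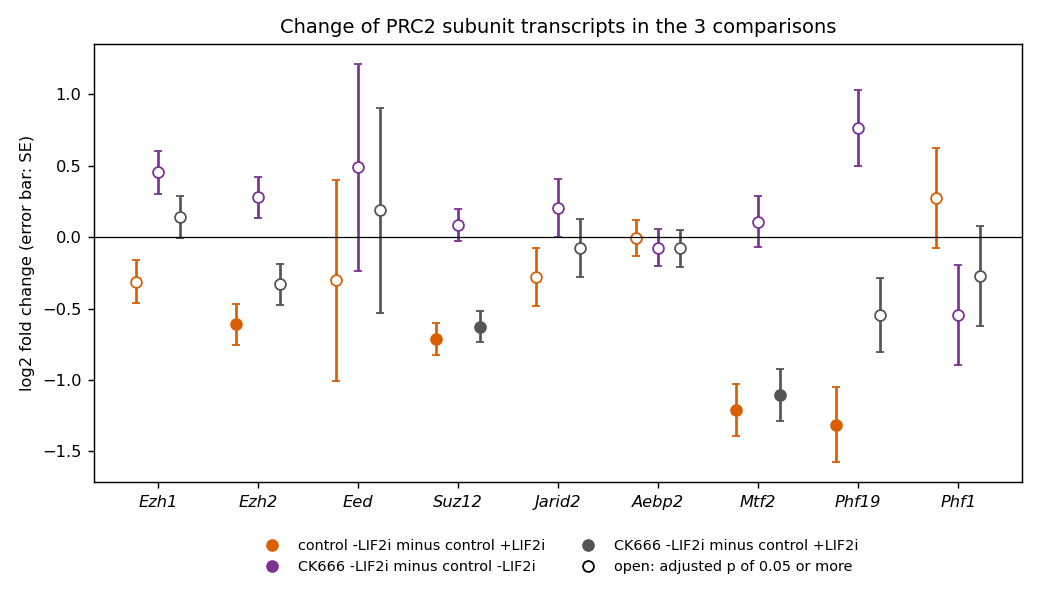
Fitted log2 fold change of each PRC2 subunit in the 3 comparisons, with SE as error bar; filled points had an adjusted p under 0.05 and open points did not. Suz12 and Mtf2 were lowered in both comparisons with self-renewal, Ezh2 and Phf19 after withdrawal in the controls, and no point for CK666 against the withdrawn controls is filled.

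The catalytic subunits, the Polycomb-like subunits and the PRC2.2 pair were each compared as shares of TPM. Jarid2 and Aebp2 belong to the same form of the complex, so their share compares partners and not alternatives. Ezh2 made up 89.0% ± 3.01 (SD, n = 3) of the summed TPM of Ezh1 and Ezh2 in self-renewal, 85.4% ± 3.58 after withdrawal and 84.6% ± 1.11 with CK666. The CK666 libraries, at 83.8% to 85.9%, lay below all self-renewal libraries, at 86.1% to 92.1%. That gave p = 0.1 in an exact two-sided permutation test, the smallest that 3 against 3 can give, and 0.75 after adjustment over 15 tests. The withdrawal difference had p = 0.3 in the same exact test, which does not use the replicate numbers. Within same-numbered pairs the share was lower after withdrawal in 3 of 3, by differences of -3.83, -3.96 and -2.77 percentage points. An exact paired permutation test, added after the data were seen, gave p = 0.25, the smallest that 3 pairs can give, and 0.536 after adjustment over 15 tests. With CK666 against self-renewal the pairs differed by -0.217, -4.59 and -8.28 points, with the same paired p in the exact test. On coding transcripts alone the Ezh2 share was 89.2% ± 1.61, 86.7% ± 3.22 and 85.2% ± 3.31 in the same order of groups. There the CK666 and self-renewal libraries overlapped.

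Mtf2 held 95.2% ± 2.45, 94.3% ± 2.40 and 93.2% ± 1.03 of the summed TPM of the Polycomb-like subunits in the same order of groups. Jarid2 held 61.3% ± 8.93, 54.3% ± 6.08 and 58.7% ± 10.4 of the PRC2.2 pair. Groups overlapped for both, with exact permutation p of 0.4 to 0.7 over their 6 comparisons. With CK666 against self-renewal the Jarid2 share was lower in 3 of 3 pairs, by -1.02, -0.249 and -6.67 points. The exact paired permutation test gave p = 0.25 there, and 0.536 after adjustment over 15 tests. In the other comparisons of these shares the pairs differed in sign. Phf19 was 2.62% ± 0.880, 1.89% ± 0.363 and 4.11% ± 2.88 of the Polycomb-like pool, the last with 7.37% in replicate 1. On coding transcripts it was 5.93% ± 1.8, 5.05% ± 1.6 and 12.6% ± 8.9. In that replicate 1 library 41.3% of the Phf19 TPM was Phf19-205, a coding transcript of 351 bases, from 4.83 estimated counts, and it was at 0 in the other 8 libraries. Without Phf19-205, a setting chosen after the data were seen, the CK666 shares were 4.46%, 3.06% and 1.90%, with a mean of 3.14% ± 1.28 (SD, n = 3), and the mean on coding transcripts was 9.84% ± 4.51. Over all transcripts, exact permutation p was 0.2 to 0.6 for the Phf19 share and 0.4 to 0.6 for the Phf1 share. All were 0.75 after adjustment over 15 tests. With CK666 against withdrawn controls, the Phf19 share was higher and the Phf1 share lower in 3 of 3 pairs. The Phf1 share was also higher after withdrawal in 3 of 3 pairs.

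**Figure D4:**
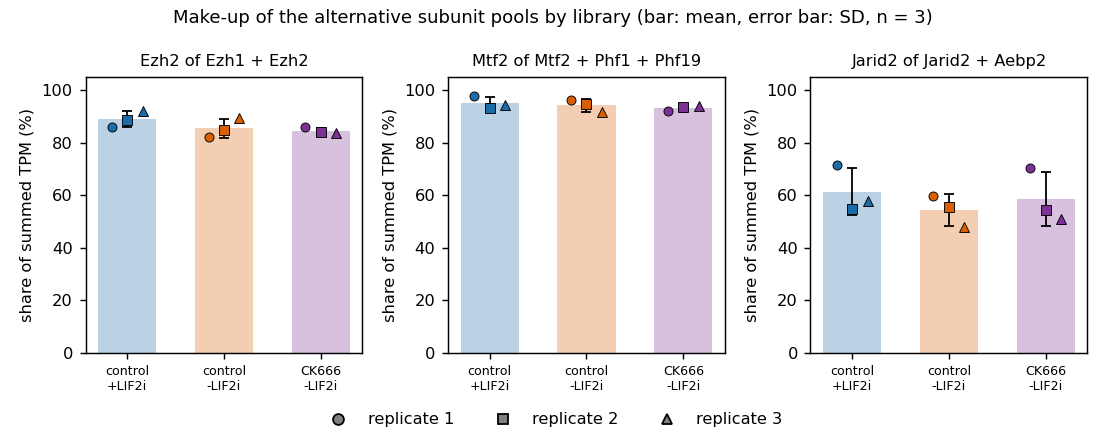
Share of summed TPM held by Ezh2 among the catalytic subunits, Mtf2 among the Polycomb-like subunits and Jarid2 in the PRC2.2 pair; points are libraries, bars are means and error bars SD (n = 3). Shares are over all transcripts. Ezh2 and Mtf2 held over 80% of their pools in all 9 libraries. Only the Ezh2 share separated a pair of groups, CK666 from self-renewal, and these overlapped on coding transcripts.

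Much of the Mtf2 signal was not in coding transcripts. Coding transcripts held 36.6% ± 4.39 of its TPM in self-renewal, 34.2% ± 6.53 after withdrawal and 28.0% ± 2.10 with CK666, against 95.3% to 99.3% for Suz12 by group mean. The main coding transcript, Mtf2-201 (4060 bases), was at 94.7, 43.9 and 71.3 TPM in self-renewal, 32.5, 21.4 and 26.1 after withdrawal, and 28.0, 29.6 and 27.9 with CK666. It was lower in all 6 libraries without LIF2i than in the 3 with it. The retained-intron transcript Mtf2-216 (673 bases) was at 23.4, 19.8 and 10.2 TPM, then 44.1, 16.3 and 11.1, then 32.1, 25.8 and 29.4, and overlapped between the control groups. Restricted to coding transcripts, the gene's withdrawal call stood.

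Ezh1 was divided between 2 coding transcripts of nearly equal length, Ezh1-202 (4207 bases) and Ezh1-203 (4193 bases). Ezh1-202 had 12.2, 800 and 294 estimated counts in self-renewal, 7.38, 880 and 8.20 after withdrawal, and 12.3, 578 and 25.8 with CK666. Ezh1-203 had 1104, 420 and 569, then 905, 92.6 and 711, then 933, 781 and 1159. The split changed from library to library within each group, and no difference between groups can be read from it. For Suz12, the second coding transcript Suz12-206 (4303 bases) had 458, 176 and 97.4 estimated counts, then 393, 195 and 402, then 569, 389 and 409. For Aebp2 a short coding transcript, Aebp2-208 (1198 bases), had 28.0, 38.9 and 42.4 estimated counts in self-renewal, 77.9, 65.0 and 85.0 after withdrawal, and 56.9, 53.8 and 73.6 with CK666. All 6 libraries without LIF2i were above the 3 with it, while values of the whole gene overlapped. Single transcripts were not tested, since their values divide shared reads. The tested sums that left transcripts out, Eed without Eed-201 and those of coding transcripts, rest on the same division.

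Of 8 other PRC2 subunits and partners, 2 were lowered by withdrawal, where 19.7% of all tested genes were: Epop, which links PRC2.1 to elongin, by a log2 fold change of -0.97 (adjusted p = 0.00470, edgeR) and Lcor by -1.11 (0.0188). Without the block the first call was lost (adjusted p = 0.133). Epop was at 329, 56.4 and 83.9 TPM in self-renewal and at 102, 43.4 and 53.6 after withdrawal, so replicate 1 carried high values. Lcorl, which encodes the PRC2.1 partner Pali2, was raised by CK666 during withdrawal, by 1.05 (adjusted p = 0.0302; 0.338 without the block), and called in 9 of 21 alternatives. It was at 11.9, 16.7 and 16.4 TPM in withdrawn controls and at 16.5, 35.1 and 23.6 with CK666. The histone-binding subunits Rbbp4 and Rbbp7 and the PRC2 inhibitor Ezhip were not called in any of the 3 comparisons.

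Of the 2 demethylases that remove the PRC2 mark, withdrawal raised 1, where 21.1% of all tested genes were raised. This was Kdm6a, at 0.40 (adjusted p = 0.0193, edgeR; 0.0605 without the block), called in 14 of 21 alternatives. Kdm6b was raised by CK666 during withdrawal, at 0.57 (adjusted p = 0.0396; 0.673 without the block), a call that held in 8 of 21 alternatives. Over all tested genes 1.15% were raised by CK666.

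PRC1, the complex that ubiquitinates histone H2A, was mixed. Of 23 subunits, 9 were raised and 6 lowered by withdrawal, or 9 called in all without the block, with a median log2 fold change of 0.17. Over all tested genes 40.7% were called, 21.1% raised and 19.7% lowered, and 24.0% without the block. Yaf2 rose by 1.74, Bcorl1 by 1.39 and Kdm2b, the subunit that binds CpG islands, by 1.14, the last not called without the block (adjusted p = 0.134, edgeR). Phc3 changed by -1.15 and Bmi1 by -1.10. Rybp, the paralog of Yaf2, changed by -0.64, and the catalytic subunit Rnf2 by -0.60. CK666 during withdrawal changed none of the 23 in edgeR with or without the block; 6 had an unadjusted p under 0.05 and DESeq2 called 1. Over all tested genes 2.05% were called with the block and 19.7% had an unadjusted p under 0.05. DESeq2 called more of all tested genes than edgeR did, and its count is given at the end.

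Of 26 developmental genes known as Polycomb targets, 15 passed the expression filter, and a gene high in 1 group alone can pass through it, so the counts are of those 15. Withdrawal raised 2 and lowered 4, a share called close to the 40.7% of all tested genes. Wt1, a transcription factor of the developing kidney and gonad, was at 1.11, 0 and 0.142 TPM in self-renewal and at 20.2, 5.64 and 4.73 after withdrawal. Gata2, a factor of blood and trophoblast, was at 88.9, 29.8 and 23.8 TPM and then at 1.60, 1.18 and 2.75. Msx1 rose by a log2 fold change of 2.09. Sox1 changed by -1.36 and Cdkn2a by -0.71. The calls of Sox1 and Cdkn2a were lost without the block (adjusted p = 0.598 and 0.256, edgeR).

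S-phase genes, which are set beside Ezh2 because its transcript is known to track proliferation, were 16. Withdrawal lowered 8 of them and raised 1 with the block, beside 19.7% of all tested genes lowered and 21.1% raised. Without the block 2 were called, E2f1 and E2f2, beside 24.0% of all tested genes. E2f1 changed by -1.24, E2f2 by -1.18, Mcm6 by -0.76 and Mcm5 by -0.61, and Ccne1 rose by 0.51. E2f2 depended on the scale: it was at 9.45, 4.94 and 4.51 TPM in self-renewal and at 4.53, 5.55 and 8.82 after withdrawal. It was called in 19 of 21 alternatives but not by limma on log2(TPM + 1) or with effective length offsets, where its log2 fold change was at most 0.019 and its adjusted p at most 0.997. The list's median was -0.38, beside -0.61 for Ezh2. The part of proliferation in the Ezh2 change was not tested. CK666 during withdrawal lowered 1 of the 16, Ccne2, by a log2 fold change of -1.43 (adjusted p = 0.0304, edgeR; 0.418 without the block), called in 12 of 21 alternatives, where 0.894% of all tested genes were lowered. CK666 against self-renewal, which shares libraries with both other comparisons, lowered 12 of the 16 and raised 0, beside 17.1% and 19.8% of all tested genes. Without the block 2 were called there, Cdc6 and E2f2, beside 20.2% of all tested genes. The list's median was -0.52 in that comparison, and Ccne2 was at -1.16, E2f2 at -0.97 and Cdc6 at -0.79.

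**Figure D5:**
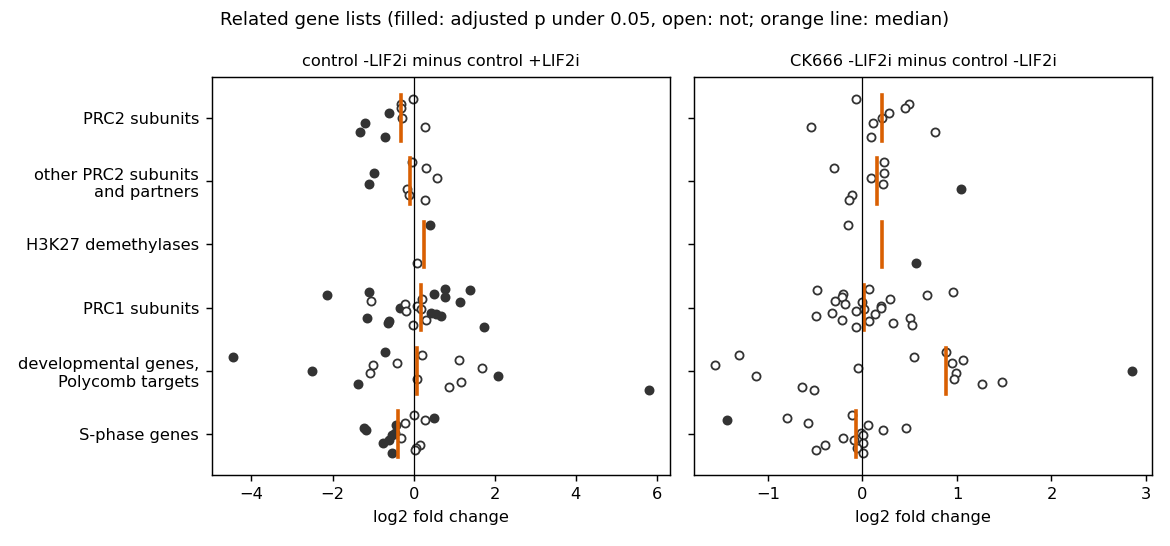
Fitted log2 fold changes of the PRC2 subunits and of 5 related gene lists for withdrawal (left) and CK666 during withdrawal (right); each point is a gene, filled where its adjusted p was under 0.05, and the orange line is the list's median. Filled points lie on both sides of 0 for PRC1 subunits after withdrawal, and on the right 4 genes are filled, none of them a PRC2 subunit.

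The genes whose profile was most like a methyltransferase were found by the root-mean-square difference of log2 CPM, each gene centred on its own mean, over 9 libraries and 9498 protein-coding genes. For Ezh2 they were Ndufa9 (0.105), Ccnt2 (0.106), Ttc13 (0.108), Smc1a (0.112) and Cplane1 (0.119), where the median gene was at 0.451. Phf1 was under the level required and was not compared. Among the other members Suz12 was nearest to Ezh2, at 0.276 and rank 1028, and Eed the farthest, at 1.15. For Ezh1 they were Cln6 (0.125), Rcbtb1 (0.130), Tmem106b (0.137), Cdk5rap3 (0.142) and Tbc1d20 (0.142), with Ezh2 at 0.346 and rank 1990. Both paralogs were therefore nearer to many other genes than to each other. These distances describe 9 libraries that share groups and replicate numbers.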

How the data were processed

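The authors deposited 1 table of transcripts per library. Per the file headers, it holds transcript length, effective length, estimated counts, unnormalised and often fractional because shared reads are divided, and TPM, scaled per library. The submitters' processing notes name FastQC, cutadapt 1.8.1, kallisto and sleuth, and both the mouse build mm10 and the human build GRCh38; transcript identifiers are those of mouse. Whether counting used strand is not given in the sources used here.

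Here, 116640 of 119414 transcripts were assigned to genes with GENCODE M21 (GRCm38); the rest held 0.895% to 1.08% of a library's counts and were left out. Estimated counts were summed per gene and rounded to whole numbers. edgeR 4.0.16 in R 4.3.3 was run with TMM scaling, its expression filter and the robust quasi-likelihood test on all 9 libraries in one fit (4 residual degrees of freedom), with replicate number as a block. CPM are TMM-scaled. P-values were adjusted by Benjamini-Hochberg over 14648 genes, and fits were tested on simulated data. Alternatives used DESeq2 1.42.0, limma 3.58.1 on log2(TPM + 1) of the deposited TPM, other scalings, filters, length offsets, coding transcripts and left-out libraries. The detection floor covers counting error only.

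Replicates are described as paired in the design text, and the titles number them; the pairing was taken from there. Deviations from group means correlated at 0.303 to 0.653 between libraries of the same number and at -0.525 to 0.286 between other libraries. Deviations from a mean of 3 libraries cancel out, so negative values between other libraries are partly built in. All negative values involved replicate 1. Between replicates 2 and 3 of different groups the values were 0.214 to 0.286, so the contrast mostly sets replicate 1 apart.

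The members, lists and tests were chosen with earlier results of these data known. Genes named beyond the members were, per list and comparison, at most the 4 largest called changes in each direction, with genes set against a member (Rbbp4, Rbbp7 and Ezhip), and the 5 genes most like Ezh1 and Ezh2. Some genes that met this rule are not reported here. Rnf2 and the transcript Eed-201 were singled out after its values were seen. Protein sequences were not analysed here.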

Additional observations from a re-analysis of the deposited data

How the results depend on the processing

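Of the called members, Suz12 and Mtf2 kept their direction and their call in all 21 alternatives of both comparisons with self-renewal, and the losses of Ezh2 and Phf19 are given with their values above. The replicate block changed no member's call, but moved counts over all genes. Without the block 3509 genes were called for withdrawal, 0 for CK666 during withdrawal (1251 at an unadjusted p under 0.05) and 2966 for CK666 against self-renewal, against 5967, 300 and 5408 with it. The CK666 count was also 1140 with DESeq2, 39 with limma on log2(TPM + 1), 565 with genes of at least 1 count in 1 library, 149 with effective length offsets and 1367 with only the 2 groups compared. With 1 replicate number or library left out, counts were 3099 to 6588 genes and 2 to 5 members for withdrawal, 0 to 1811 genes and 0 to 1 member for CK666, and 2413 to 6129 genes and 2 to 4 members for CK666 against self-renewal. The causes were not tested.

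Some fitted changes that were not called changed sign between settings, and not all of these were near 0. In the main fit Eed was at 0.49 for CK666 during withdrawal and at 0.19 for CK666 against self-renewal. For withdrawal, Aebp2 was at 0.0071 without the replicate block, 0.010 with RLE size factors and with DESeq2, 0.067 with library totals, 0.073 with limma on TPM, 0.014 with the looser filter, 0.053 with length offsets and 0.0017 with coding transcripts, and Phf1 was at -0.053 without the block. For CK666 during withdrawal, Eed was at -0.028 without the block, -0.16 with limma, -0.10 with length offsets and -0.28 without Eed-201, a setting chosen after seeing the data. For CK666 against self-renewal, Eed was at -0.46, -0.76, -0.77 and -1.67 (adjusted p = 0.00083, edgeR) under the same settings, and Aebp2 at 0.012 with limma and 0.014 with length offsets. Left-out libraries gave, for withdrawal, -1.06 to 0.50 for Eed, -0.097 to 0.14 for Aebp2 and -0.17 to 0.64 for Phf1. For CK666 during withdrawal they gave -0.52 to 1.28 for Eed, -0.15 to 0.41 for Jarid2, -0.26 to 0.064 for Aebp2 and -0.074 to 0.24 for Mtf2. For CK666 against self-renewal they gave -0.80 to 1.06 for Eed, -0.35 to 0.14 for Jarid2, -0.21 to 0.036 for Aebp2 and -0.57 to 0.018 for Phf1. With coding transcripts, Mtf2 held 89.5%, 87.4% and 80.5% of the Polycomb-like TPM in self-renewal, after withdrawal and with CK666.

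Eed is the least precise member, with an SE of 0.70 to 0.73 on the log2 scale in the 3 comparisons. Its sum over transcripts ranged from 131 to 1928 estimated counts in the control libraries; the cause was not tested. Phf1 and Phf19, the least abundant members, had 16 to 292 estimated counts a library.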
